A study of Drosophila melanogaster with 2 samples.

Results

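The peaks described here are Taf1 binding sites at lone promoters, that is, promoters that serve 1 protein-coding gene with no head-to-head neighbour. A peak was a member when its summit lay within 500 bp of a protein-coding transcription start site (TSS) and the gene with the nearest such TSS had no start site of another protein-coding gene upstream on the opposite strand within 1 kb. Of 2658 peaks on chromosome arms in the larger pooled list, 1405 had a summit at a promoter, and 653 of these were lone. The other 752 lay at head-to-head genes, and 1253 peaks lay outside promoter windows. The 653 lone peaks were nearest to 600 genes. The larger pooled list had been thresholded by the authors on the irreproducible discovery rate (IDR), which ranks peaks by signal and agreement, so every promoter peak had passed that filter. Within the list only positions and the gene annotation chose the lone peaks.

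Chromatin immunoprecipitation with sequencing (ChIP-seq) was done on whole Drosophila melanogaster embryos collected from 0 to 24 h, in 1 group with 2 biological replicates. The embryos came from a transgenic strain, Taf1-GFP, that expresses a Taf1-eGFP fusion protein, and chromatin was pulled down with an antibody to GFP. The labels give the insertion as targeting Taf1 and state no sex. Embryos of all stages and tissues were mixed, so a peak does not show in which cells or at which stage the protein was bound.

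Taf1 is a large scaffold subunit of TFIID, a multiprotein factor that recognises core promoters and helps to place RNA polymerase II. TFIID also contains TBP, which binds the TATA box upstream of some start sites, and subunits that contact the initiator at the start site. In flies, promoters of genes active in most cells often carry other elements, such as the DRE (the site of the factor DREF), Ohler motif 1 (the site of M1BP), Ohler motif 7 and the E-box. Promoters of developmentally regulated genes more often carry a TATA box, an initiator or GAGA elements.

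The sequence under 8 lone peaks is shown first because the results on base composition and motifs below turn on it. Each stretch covers 60 bases on either side of the summit on the release 6 (dm6) assembly, read from RefSeq along the strand of the gene, and overlaps no annotated exon. CG14100 had the strongest lone peak, and capitals mark an initiator match. Each of the others carried its motif inside the printed stretch, met these conditions and was not already shown. Stronger lone peaks than some of these held the same motif within 100 bp of the summit, on the arms used. Examples were CG11857 (458) with Ohler motif 7 and Jwa (213) with the DRE. Not every chromosome arm was used for printed sequences, so this choice covers only the arms used. A stronger peak with the same motif on another arm would not be shown. Capitals mark, on either strand, the TATA box of CG18549, the E-box of Hpf1 (a histone PARylation factor), the DRE of PolA1 (DNA polymerase alpha), Ohler motif 1 of CG43163, Ohler motif 7 of Pi3K21B (a regulatory subunit of PI 3-kinase), the GAGA elements of CG1907 and the 8 base word of Rtnl1 (a reticulon of the endoplasmic reticulum).
CG14100, chr3L:19590559-19590679, minus strand: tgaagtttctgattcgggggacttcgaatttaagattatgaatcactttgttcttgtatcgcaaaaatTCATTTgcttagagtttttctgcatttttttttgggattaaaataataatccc
CG18549, chr3R:12449112-12449232, plus strand: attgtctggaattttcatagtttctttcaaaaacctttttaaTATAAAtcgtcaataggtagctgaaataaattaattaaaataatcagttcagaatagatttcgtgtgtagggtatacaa
Hpf1, chr3R:5791737-5791857, plus strand: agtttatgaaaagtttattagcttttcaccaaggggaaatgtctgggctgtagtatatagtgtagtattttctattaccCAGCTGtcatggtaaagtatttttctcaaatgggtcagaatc
PolA1, chr3R:21671786-21671906, minus strand: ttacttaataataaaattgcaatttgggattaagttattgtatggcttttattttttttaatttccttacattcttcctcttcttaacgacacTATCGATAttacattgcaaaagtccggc
CG43163, chr3L:8507174-8507294, minus strand: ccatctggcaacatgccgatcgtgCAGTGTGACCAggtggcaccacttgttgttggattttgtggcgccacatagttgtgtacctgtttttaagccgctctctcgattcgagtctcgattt
Pi3K21B, chr2L:297757-297877, plus strand: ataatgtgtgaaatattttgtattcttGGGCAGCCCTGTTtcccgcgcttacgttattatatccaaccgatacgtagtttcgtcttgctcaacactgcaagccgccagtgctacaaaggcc
CG1907, chr3R:29618830-29618950, plus strand: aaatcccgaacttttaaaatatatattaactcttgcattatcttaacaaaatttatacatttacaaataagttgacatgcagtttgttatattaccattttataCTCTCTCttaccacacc
Rtnl1, chr2L:4997571-4997691, minus strand: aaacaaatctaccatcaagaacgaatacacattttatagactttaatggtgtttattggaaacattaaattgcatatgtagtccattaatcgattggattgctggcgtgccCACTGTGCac

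The strongest lone peak lay between genes at CG14100 (chr3L:19590484-19590756). Its pooled signal, the authors' value for the peak on a scale that is not stated, was 1304, with 509 in replicate 1 and 797 in replicate 2. The next, in an intron of ph-p (chrX:2137209-2137493), which encodes a Polycomb group protein of the PRC1 complex, had 1046 pooled, 462 in replicate 1 and 587 in replicate 2. The peak at eIF6 (chr2R:23850284-23850528), a factor in the making of the large ribosomal subunit, lay 99 bp upstream of the start site. Its summit was inside the genes ytr and asRNA:CR45928, in a noncoding part of an exon. This peak had 845 pooled, 346 in replicate 1 and 503 in replicate 2. CG1635 followed with 728 pooled, and its order was the other way, with 386 in replicate 1 and 336 in replicate 2. All of these stood far above the median lone peak, which had a pooled signal of 94.4.

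The other peaks among the 20 strongest ran from 626 at SLC5A11, a member of the sodium/solute cotransporter family, to 458 at CG11857. They included Sox14 (591), an HMG-box transcription factor, amon (541), a prohormone convertase, and moody (508), a receptor of the glia that form the blood-brain barrier. Gapdh2 (490) encodes a glycolytic enzyme and Atf3 (459) a bZIP transcription factor. The rest were Tina-1 (614), CG17896 (612), GstE13 (597), CG1888 (592), a second ph-p peak (590), CG18549 (550), osp (467), Reg-5 (465) and CG13921 (462). No single kind of gene made up this group, which held enzymes, regulators, membrane proteins and genes known only by a CG number.

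Pooled signal over all 653 peaks ran from 2.45 to 1304, with quartiles at 69.5 and 149.8. The 752 head-to-head peaks had a median of 95.9. On the log2 scale the lone peaks were higher by 0.02 (95% interval -0.10 to 0.14, adjusted p = 0.708, n = 653 and 752 peaks). This difference and those below with an adjusted p came from linear models across all promoter peaks with robust standard errors, two-sided and adjusted over 6 measures. Peaks and not embryos were the units, so these p-values describe the pooled libraries and not the spread between embryo collections. A difference in signal between the classes was therefore not detected. Intervals of other settings were wider on 1 side. They ran from -0.15 to 0.12 with a summit window of 250 bp and from -0.04 to 0.19 with GC content around the summit as a covariate.

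The 16 weakest lone peaks, all with a pooled signal below 10, were shoulders of other peaks in position. Each of the 16 overlapped a stronger peak at the same gene, with its summit 199 to 233 bp from the stronger one. At Mer, for example, a peak of 2.45 lay 203 bp from one of 122. At robo2, which encodes an axon guidance receptor, a peak of 4.05 lay 220 bp from one of 65.4. Without these, 637 lone peaks remained.

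Replicate values came from the relaxed lists, which hold 33551 peaks in replicate 1 and 95427 in replicate 2. In lists of this length a match can also arise by chance, at a rate that was not estimated, and the members come from a pooled list. A summit within 100 bp was present for 617 peaks in the relaxed list of replicate 1, where their median signal was 49.1, and for 583 in that of replicate 2, where it was 52.8. In 570 peaks both were present, and their signals had a Spearman correlation of 0.697 across peaks, given as a description since the replicates share the same sites. In the stricter thresholded lists, 333 (51.0%, exact 95% interval 47.1 to 54.9) were in replicate 1 and 437 (66.9%, 63.2 to 70.5) in replicate 2. Both lists held 269, neither held 152, only replicate 1 held 64 and only replicate 2 held 168. The replicate 2 lists are longer, with 1994 thresholded peaks against 1283. Read depth is unknown because the files give no read counts, and intervals of shares cover counting error only.

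**Figure D1:**
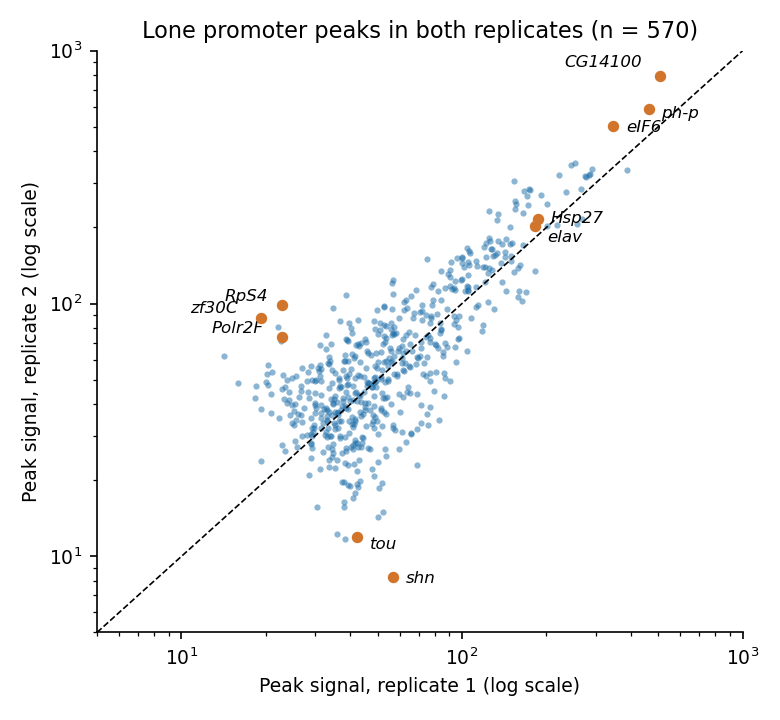
Signal of each lone peak in replicate 1 (x axis) against replicate 2 (y axis), both on log scales and in the authors' unstated unit, for the 570 peaks found in both relaxed lists, with the line of equal signal dashed. The strong peaks of CG14100, ph-p and eIF6 lie above the line, with log2 ratios of 0.65, 0.34 and 0.54 against a median of 0.14, and zf30C (2.20) and shn (-2.78) lie farthest from it.

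Single peaks could differ strongly between the replicates. The largest excess in replicate 2 was at zf30C, a zinc finger gene, with 19.2 in replicate 1 and 88.0 in replicate 2, a log2 ratio of 2.20. It was followed by sw, the dynein intermediate chain (14.1 and 62.1), RpS4, a ribosomal protein (22.9 and 98.6), CG3638 (22.1 and 80.6) and Polr2F, a subunit of RNA polymerase II (22.8 and 73.5). All of these were in the thresholded list of replicate 2 and absent from that of replicate 1 and from the conservative list.

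The largest excess in replicate 1 was at shn, a zinc finger protein of Dpp signalling, with 56.8 in replicate 1 and 8.27 in replicate 2, a log2 ratio of -2.78. The next were tou (42.4 and 11.96), CG33116 (50.4 and 14.3), Sur-8 (52.5 and 15.03) and CG12075 (38.3 and 11.7). None of these 5 was in the conservative list or in the thresholded list of replicate 2. The mean log2 ratio of replicate 2 to replicate 1 was 0.10 over lone peaks and 0.17 over head-to-head peaks. The difference of -0.07 (-0.15 to -0.00) did not pass the adjustment (adjusted p = 0.0887, n = 570 and 635 peaks).

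Of the lone peaks, 517 (79.2%, 75.9 to 82.2) were also in the conservative pooled list, as were 77.5% of head-to-head peaks. The difference was 1.65 percentage points (-2.67 to 5.97, adjusted p = 0.546, n = 653 and 752 peaks). Presence in the lists rose with the signal, and the IDR itself ranks peaks by signal, so this order is partly built in. In the lowest quartile of pooled signal 7.93% of lone peaks were in the replicate 1 list, 20.1% in the replicate 2 list and 42.7% in the conservative list. In the highest quartile these shares were 100%, 98.8% and 98.8%.

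The summits sat mainly upstream of the start site. Of the 653, 538 (82.4%) were upstream, with a median position of -145 bp. Head-to-head peaks were upstream in 81.4%, with a median of -93.0 bp. The mean position of lone minus head-to-head summits was -48.2 bp, with means of -126 and -77.8 bp. This is a description, because the rule used the distance to the start site and the gap between paired start sites bounds it at head-to-head genes. With the 250 bp window the difference was -19.5 bp. Against only the head-to-head peaks whose nearest partner start site was 500 bp or more away, a check added after seeing the data, it was -20.5 bp.

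**Figure D2:**
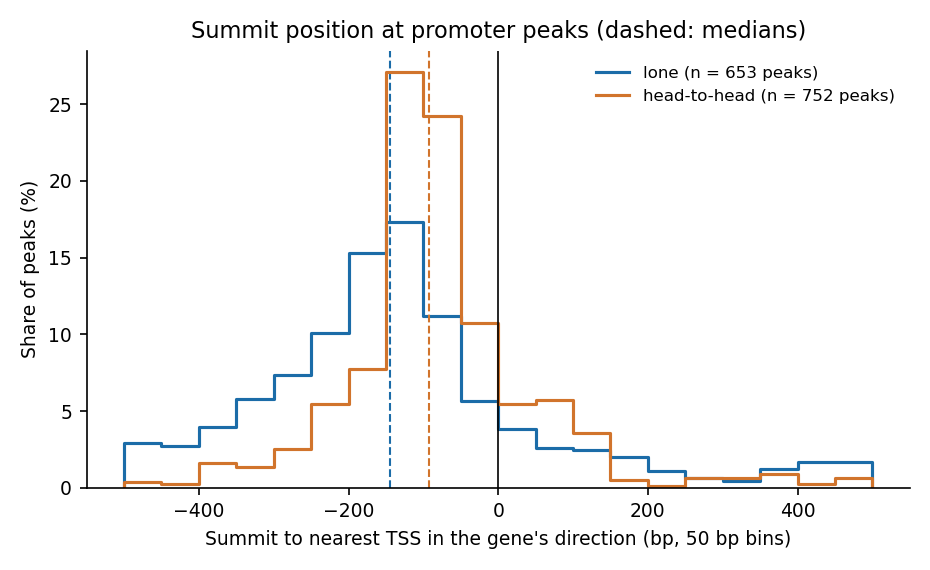
Share of peaks (y axis, %) by the distance from the summit to the nearest TSS in the direction of the gene (x axis, bp, bins of 50 bp, negative upstream), for 653 lone and 752 head-to-head peaks. Dashed lines mark the medians at -145 and -93.0 bp, and the lone peaks have the longer upstream tail.

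Stronger lone peaks lay farther upstream. From the lowest to the highest quartile of pooled signal the median position was -102.5, -137, -163 and -172 bp, and the share upstream rose from 72.6% to 90.2%. In replicate 1 alone the lone peaks above the median signal had a median position of -168 bp and the others -122 bp. In replicate 2 these were -172 and -123.5 bp. The order was thus the same in each replicate, without a test. The Spearman correlation of pooled signal with position was -0.194 over lone and -0.152 over head-to-head peaks.

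Base composition moved in the same order. GC content within 100 bp of the summit had a mean of 36.7% at lone peaks and 34.9% at head-to-head peaks, a difference of 1.84 percentage points (1.04 to 2.64, adjusted p = 1.96e-05, n = 653 and 752 peaks). Among the lone peaks the median GC content fell with signal, at 38.3, 35.3, 34.3 and 33.8% from the lowest to the highest quartile. It was 33.8% above and 37.3% below the median replicate 1 signal, and 34.3% and 35.8% above and below the median replicate 2 signal. Across the 653 peaks, signal and GC content had a Spearman correlation of -0.218 and GC content and position one of 0.315, which are descriptions over peaks of the same libraries. Head-to-head peaks had much the same values, at -0.197 and 0.335. The stretch printed for CG18549, with a signal of 550, shows the AT-rich kind of sequence found under many strong lone peaks (31.3% GC). The peak at moody, with a signal of 508 and 54.7% GC, went against this order.

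**Figure D3:**
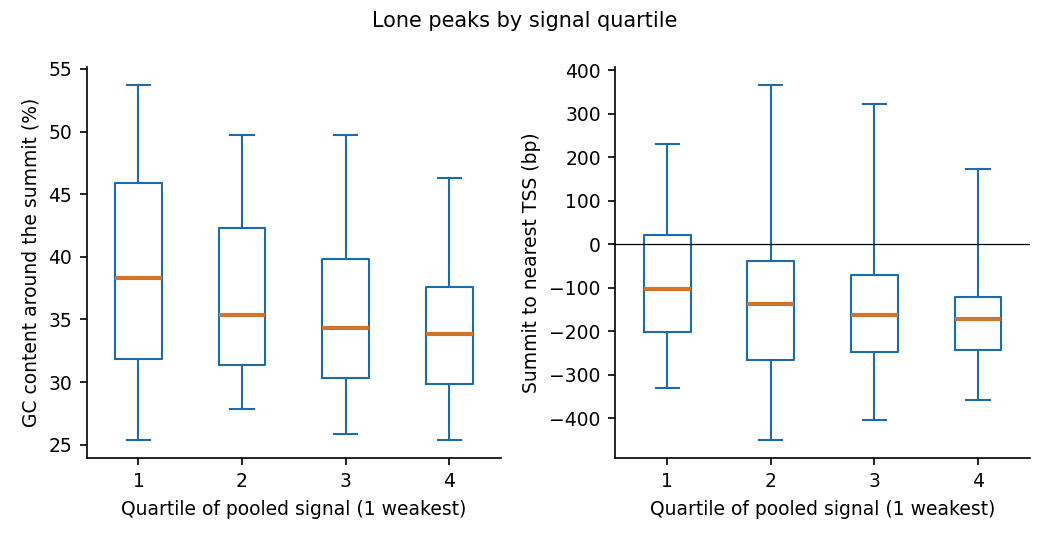
GC content (left, %) and summit position relative to the TSS (right, bp) of the lone peaks in quartiles of pooled signal (x axis, 1 weakest), with boxes at the quartiles, orange lines at the medians and whiskers at the 5th and 95th percentiles. Median GC content falls from 38.3% to 33.8%, and the median position moves from -102.5 to -172 bp.

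The TATA box hexamer TATAAA became more frequent along the same quartiles, from 41 of 164 lone peaks in the lowest to 75 of 163 (46.0%) in the highest. Its match was counted on both strands within 100 bp of the summit, a window of 201 bases, as for all motifs here. It was present at 229 of 653 lone peaks (35.1%, 31.4 to 38.9), 42.3% of head-to-head peaks and 33.9% of windows of the same length at all 13968 protein-coding genes. Its gap between lone and head-to-head peaks of -7.22 percentage points was -1.17 without replicate 2 and -5.52 without replicate 1. The windows of genes were centred 145 bp upstream of each gene's most upstream TSS, the median position of the lone summits. A match says only that the letters are there. GC content fell along the same quartiles, and its part in the rise of this AT-only hexamer was not tested.

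For 3 motifs typical of broadly active genes the share at lone peaks was below that at head-to-head peaks. The DRE, TATCGATA, occurred at 33 lone peaks (5.05%, 3.50 to 7.02) and at 8.64% (6.73 to 10.9) of head-to-head peaks. Ohler motif 7 occurred at 5.51% (3.89 to 7.55) and 12.2% (9.98 to 14.8), and the E-box CAGCTG at 6.43% (4.67 to 8.59) and 11.8% (9.61 to 14.4). Ohler motif 1 did not follow, with 2.14% (1.18 to 3.57) and 1.46% (0.732 to 2.60). At all protein-coding genes the shares were 4.19% for the DRE, 3.97% for Ohler motif 7, 9.20% for the E-box and 1.12% for Ohler motif 1. The DRE intervals overlapped slightly, those of Ohler motif 7 and the E-box did not, and the shares were not tested against each other. The size of the gap varied between the lists of single replicates, which also differ in length, and the cause was not tested. The DRE gap of -3.59 percentage points was -3.51 without replicate 1 and -1.20 without replicate 2. The E-box gap of -5.40 was -3.29 without replicate 1 and -3.75 without replicate 2. The Ohler motif 7 gap of -6.72 was -8.25 and -5.80.

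A closer background for the lone peaks is the 8295 genes that have no head-to-head neighbour and no summit within 500 bp of any start site. There the DRE occurred in 2.77% (2.43 to 3.15), Ohler motif 7 in 2.69% (2.35 to 3.06) and Ohler motif 1 in 0.398% (0.274 to 0.558) of windows. The intervals of the lone peaks lay above each of these. The E-box went the other way, with 8.55% (7.95 to 9.17) against 6.43% at the lone peaks, and the intervals overlapped. In the lists of single replicates the lone share of the DRE was 4.29% without replicate 2 and 4.34% without replicate 1. That of Ohler motif 1 was 1.43% and 2.07%, and that of Ohler motif 7 was 5.43% and 4.55%. These shares are given without intervals. The windows were placed differently. Those of peaks followed the summit, at a median of -96 bp with the DRE, -94 bp with Ohler motif 7 and -62 bp with Ohler motif 1. Those of genes were centred 145 bp upstream of the start site, and the part of this in the gaps was not tested. At least 1 of the DRE, Ohler motifs 1, 6 and 7 and the E-box was found at 113 lone peaks (17.3%, 14.5 to 20.4), at 29.8% (26.5 to 33.2) of head-to-head peaks and in 14.1% (13.4 to 14.9) of these unoccupied windows. Ohler motif 6 itself was seen at 3 lone peaks (0.459%), and in 1.27% of windows at all genes.

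The lone peaks with 1 of these motifs looked different in position. Their median summit was at -93.0 bp, against -159.5 bp for the lone peaks without. Their median signal was 86.4 against 95.1. Head-to-head peaks showed the same order, at -71.0 bp with such a motif and -106 bp without, and with signals of 87.8 and 98.9. Among the lone peaks, those with the DRE had a median position of -96.0 bp, and those with Ohler motif 1 one of -62.0 bp. Ohler motif 1 fell within 50 bp of the summit at only 0.153% of lone peaks, so nearly all of its matches lay between 50 and 100 bp away.

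GAGA elements (GAGAG, the site of GAGA factor) were at 170 lone peaks (26.0%, 22.7 to 29.6) and at 17.2% (14.5 to 20.04) of head-to-head peaks. The unoccupied windows held them at 24.5% (23.6 to 25.4), so the lone share was near this background. The core of the BEAF-32 site, CGATA, which lies in every DRE, was at 32.0% of lone peaks, 37.8% of head-to-head peaks and 28.1% of the unoccupied windows. Its gap of -5.76 percentage points between lone and head-to-head peaks was -1.18 without replicate 2 and -10.4 without replicate 1. The initiator, searched as TCAGTC or as TCAGTT and also as the words TCATTC or TCATTT, was at 42.0%, 40.7% and 44.5%. The Zelda element CAGGTAG, known from the early embryo, was at 2 lone peaks (0.306%) and in 1.54% of the unoccupied windows.

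**Figure D4:**
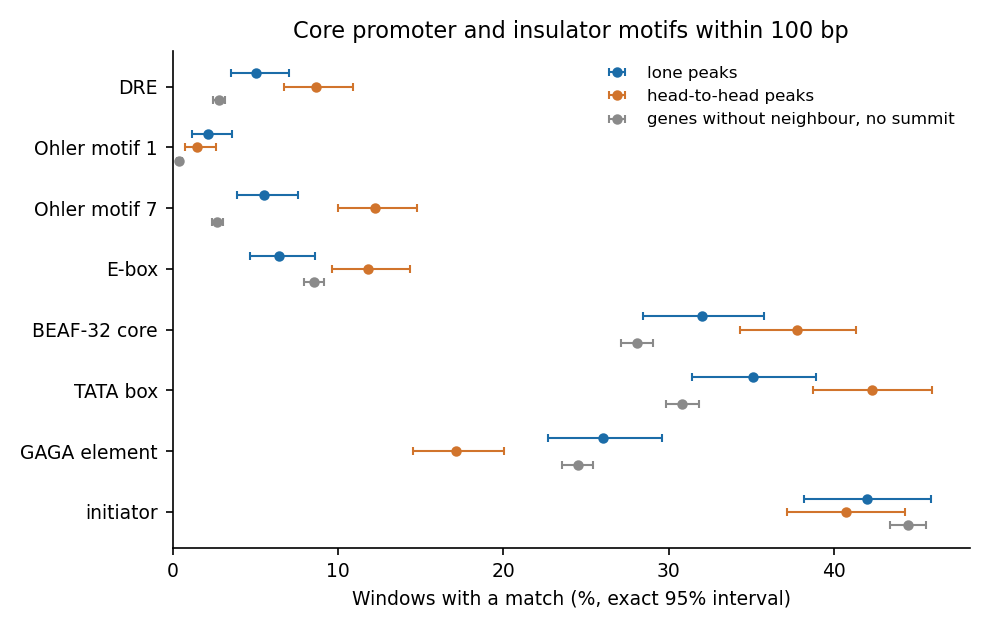
Share of windows of 201 bases with a match (x axis, %, points with exact 95% intervals) for 8 motifs (y axis) at lone peaks, at head-to-head peaks and at the 8295 genes with no head-to-head neighbour and no summit. The lone points lie below the head-to-head points for the DRE, Ohler motif 7 and the E-box and above them for GAGA elements, where they are near the genes with no summit.

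Counted at their usual place on the strand of the gene, the 2 TFIID elements gave another picture. The initiator within 12 bases of the start site was present at 143 of 636 start sites nearest to lone peaks (22.5%, 19.3 to 25.9). It was present at 9.54% (7.51 to 11.9) of head-to-head start sites and at 16.7% (15.9 to 17.5) of the most upstream start sites of the 8295 unoccupied genes. A TATA box between 40 and 20 bases upstream was found at 17 of the 636 (2.67%, 1.56 to 4.25), against 2.04% (1.15 to 3.35) and 8.91% (8.30 to 9.54). Initiators were thus more frequent at lone start sites than in either other set and placed TATA boxes less frequent than at unoccupied genes, as shares without a test. The nearest start site was used for peaks and the most upstream one for unoccupied genes.

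The start sites below show both kinds. They were the 2 strongest of each with no exon in the 60 bases upstream on the chromosome arms used for printing. The initiator start site of Sox14, with a stronger peak (591) than osp, lay on an arm that was not used. Each stretch below covers 60 bases upstream and 12 downstream of the start site. Capitals mark the TATA box of Hsp27, a small heat shock protein, from -28 to -23, and of MFS18, from -35 to -30. They mark the initiator of osp from 0 to 5 and of CG17896 from 1 to 6, counted from the start site as 0. Hsp27 had a signal of 396 pooled, 187 in replicate 1 and 216 in replicate 2, and MFS18 one of 331, 166 and 170.
Hsp27, chr3L:9384003-9384075, plus strand: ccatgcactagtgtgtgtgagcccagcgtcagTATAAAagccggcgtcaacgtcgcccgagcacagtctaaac
MFS18, chr2L:4448623-4448695, minus strand: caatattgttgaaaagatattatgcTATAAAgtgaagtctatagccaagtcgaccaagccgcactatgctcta
osp, chr2L:14689328-14689400, minus strand: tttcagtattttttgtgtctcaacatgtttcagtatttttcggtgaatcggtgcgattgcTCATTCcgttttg
CG17896, chrX:493483-493555, minus strand: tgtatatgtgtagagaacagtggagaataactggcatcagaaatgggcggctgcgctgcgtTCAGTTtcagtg

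A scan of all words of 8 bases within 75 bp of the summit compared lone peaks with unoccupied genes. The words with the highest ratios formed 1 related group. Words of this length were chosen after shorter ones had been looked at, and the words were picked because they were frequent in these peaks, so the shares carry no test. Of 649 words found at 15 or more lone peaks, CACTGTGC had the highest ratio, at 27 lone peaks (4.13%) and in 0.555% of unoccupied windows. ACAGTGGG (24 peaks) and CACAGTGG (25 peaks) came next, and on 1 strand all 3 words hold ACAGTG. At least 1 of them was at 42 lone peaks (6.43%, 4.67 to 8.59), with the strongest at Tina-1, ph-p, Rtnl1, Dpp10, chn and Gorab. The share was 3.19% (2.06 to 4.71) at head-to-head peaks, 5.99% (4.74 to 7.45) at peaks outside promoter windows and 1.01% (0.809 to 1.25) in unoccupied windows. The words were therefore not limited to lone promoters among the Taf1 peaks. Unrelated words also had higher shares at lone peaks than in unoccupied windows, such as AAGGGTAT (2.30% against 0.603%).

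The lone peaks divided almost evenly between positions outside and inside annotated genes. Their summits lay between genes in 334 cases (51.1%), in an intron in 188 (28.8%), in a noncoding part of an exon in 124 and in a coding exon in 7. The annotation of the own gene held 263 summits (40.3%), either downstream of the nearest start site or upstream of an internal one. The next gene upstream of the start site ran on the same strand for 416 peaks (63.7%), at a median distance of 925.5 bp. It ran on the opposite strand for 167, at a median of 4353 bp. For the other 70 the start site lay inside another gene. Of all summits, 66 (10.1%) lay inside another protein-coding gene. Noncoding genes rarely shared the promoter, and 609 peaks (93.3%) had no noncoding start site within 500 bp.

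Genes with a lone peak were longer and had more annotated start sites than genes without. The 600 genes had a median length of 5574 bp and a mean of 2.12 start sites (SD 1.55), and 54.7% had more than 1. The 8295 unoccupied genes had a median of 1977 bp and 1.31 start sites (SD 0.758), and 21.3% had more than 1. Genes nearest to head-to-head peaks were close to the lone ones in start sites, with a mean of 1.86 and 50.3% with more than 1, but had a median length of 2933 bp. A gene with more start sites has more windows in which a summit can count. The share of genes with a lone peak was 3.99% (3.54 to 4.48) with 1 start site, 11.8% (10.1 to 13.5) with 2, 19.2% (15.4 to 23.5) with 3 and 30.4% (25.1 to 36.2) with 4 or more. Among genes with 1 start site those with a lone peak were still longer, with a median of 2950 bp against 1664 bp.

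In all, 44 genes had 2 or more lone peaks, of which 37 had 2, 5 had 3 and 2 had 4. Without the 16 weak shoulders the number was 29. This number still counts pairs at a like spacing whose weaker peak had a signal above 10. Examples were Gli (86.3 and 12.7, 199 bp apart) and Dph1 (121 and 16.9, 201 bp apart). At ph-p 3 peaks with signals of 1046, 590 and 62.0 lay within 1165 bp, each nearest to another of its 3 start sites. Rtnl1 had 4 peaks (446, 294, 127 and 121) across 7527 bp, each at another start site, and Ptpmeg2, a protein tyrosine phosphatase, had 4 across 18148 bp. At dnc, the cAMP phosphodiesterase of the learning mutant dunce, 3 peaks (255, 186 and 93.1) spanned 73343 bp. The others among the 10 with the highest summed signal were brwl, Syx4, aru, CHES-1-like, gro, a corepressor, and CAP, with 2 each. In all 10 genes the peaks had different nearest start sites.

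Lone peaks were spread over the arms. The X held 132 of them (20.2%) and 84 (11.2%) of the head-to-head peaks. Of genes without a head-to-head neighbour on the X, 8.07% (6.70 to 9.61) had a lone peak, against 5.82 to 7.22% on the other large arms. Of genes with a head-to-head neighbour, 10.3% had a peak on the X and 14.0 to 16.8% on those arms. The X was therefore highest for lone genes and lowest for head-to-head genes among these 5 arms, without a test. Chromosome 4 had 4 lone peaks and no head-to-head peak, and the Y had neither.

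Of the 8916 genes without a head-to-head neighbour, 6.73% (6.22 to 7.27) had a lone peak, and the gene lists below are read against this share. The cytoplasmic ribosomal protein list stood above it, with 11 of 37 such genes (29.7%, 15.9 to 47.0). The strongest were RpL23A (128 pooled, 34.6 in replicate 1, 95.7 in replicate 2), RpS4 (121, 22.9 and 98.6) and RpL24 (94.4, 45.9 and 47.0). None of the 11 was in the thresholded list of replicate 1, where 51.0% of all lone peaks were, while 8 were in that of replicate 2 and 9 in the conservative list. Of the 10 with a signal in both replicates, 9 were higher in replicate 2, against 348 of the 570 such peaks among all lone peaks. Their summits lay at -134 to -3 bp with a median of -42.0 bp, closer to the start site than the -145 bp of all lone peaks. Whether the longer lists of replicate 2 play a part in this count was not tested.

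Lists of factors that act at promoters had few members. Of 12 promoter and insulator binding factors without a head-to-head neighbour 4 had a lone peak (33.3%, 9.92 to 65.1), namely row (194 pooled, 77.6 in replicate 1, 116 in replicate 2), BEAF-32 (85.4), psq (79.0) and Myc (67.1). Of these 4 only row had a signal in both replicates. Among 14 genes of TFIID, the general factors and RNA polymerase II only Polr2F had one, among 8 Mediator genes only MED4 (110 pooled, 32.8 and 75.1), and among 14 chromatin factors only ph-p. With so few genes the intervals of the last 3 lists cover 6.73%.

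Translation factors had a lone peak at 4 of 26 genes (15.4%, 4.36 to 34.9). After eIF6 these were eEF1gamma (145 pooled, 49.6 in replicate 1, 94.3 in replicate 2), eIF2A (76.5, 45.4 and 32.8) and eIF2D (71.2). By contrast no lone peak was found at 43 genes of oxidative phosphorylation (0%, up to 8.22), 15 mitochondrial ribosomal protein genes (up to 21.8) or 25 cytoskeleton and motor genes (up to 13.7). Only the upper limit of the cuticle proteins, with 0 of 109 genes (up to 3.33), lay below 6.73%. Cuticle genes are switched on late, in the epidermis. The proteasome list had 1 of 22 (Rpn12, 66.4).

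Developmental genes were present in small numbers. Of 46 patterning transcription factors 3 had a lone peak (6.52%, 1.37 to 17.9), which is near the background. These were tin, needed for heart and visceral mesoderm (136 pooled, 86.5 in replicate 1, 43.0 in replicate 2), cnc, a bZIP factor of head segments (102, 45.5 and 55.5) and bcd, the anterior determinant (55.2, 29.0 and 30.4). Of 22 Notch and neural genes 3 had one, at elav, a neuronal RNA-binding protein (380, 182 and 203.5), numb, an inhibitor of Notch (264, 104 and 166), and N, the Notch receptor itself (65.5, 39.7 and 30.9). Of these 6 peaks, that at tin differed most between the replicates.

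Signalling genes had 5 of 31 (16.1%, 5.45 to 33.7). The kinase gene sgg, a negative regulator of Wnt signalling, had 219 pooled, 102 in replicate 1 and 112 in replicate 2. The Wnt antagonist nkd had 123, 79.6 and 45.2, and kay, which encodes Fos, had 63.9, 41.6 and 28.9. The peak at shn was the weakest, at 57.6. Heat shock genes had 2 of 17, with Hsp26 (79.3, 53.3 and 26.5) weaker than Hsp27. Single lone peaks were seen at CycE (81.0) of 21 cell cycle genes and at sls (164, 56.6 and 109), the fly titin, of 18 muscle genes. Of 42 Rab and vesicle transport genes Syx4, a syntaxin, and Snx27 had lone peaks, the former 2 (317 and 168). The lists together covered 40 of the 600 genes.

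**Figure D5:**
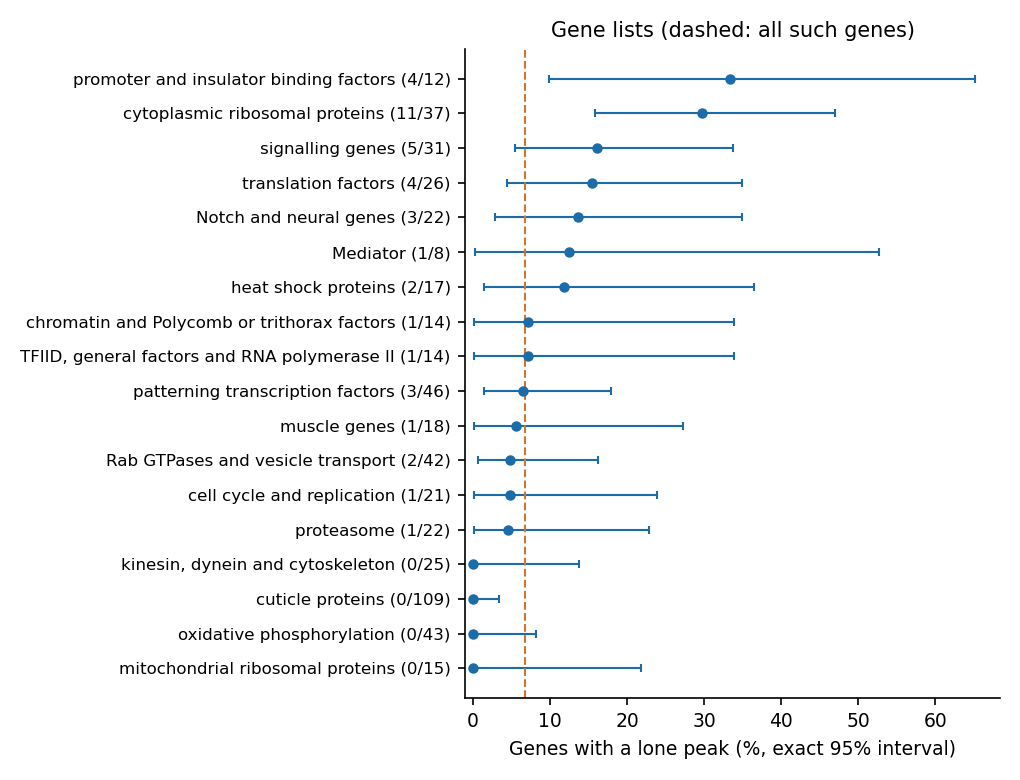
Share of the genes without a head-to-head neighbour that had a lone peak (x axis, %, points with exact 95% intervals) in each of 18 gene lists (y axis, with the number of genes with a peak and the number of genes). The dashed line marks 6.73%, and the ribosomal protein and promoter factor intervals lie above it while that of the cuticle proteins lies below.

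Peaks close to the limits of the rule were as follows. Just inside 500 bp were CG17896 at 499 bp (signal 612), and ph-p (1046) and amn (81.5) at 497 bp. Just outside were Ogdh at 501 bp (88.7), CG7987 (18.0) and CG31612 (388) at 502 bp. The partner start site was just within 1 kb for Sarm (992 bp), CG32767 (991 bp) and Ance (984 bp), which were not members. It was just beyond for Ptp4E (1023 bp), qtc (1025 bp) and CG14434 (1033 bp), which were. Strong peaks such as ph-p and CG31612 thus stood on both sides of the window edge. Of all lone peaks, 111 (17.0%) had an opposite-strand start site from 1 to 2 kb upstream.

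Most lone peaks had the same width of 316 bp (81.5%), and the highest quartile of signal had a median width of 191 bp. Width differed between lone and head-to-head peaks by -3.25 bp (-9.59 to 3.08, adjusted p = 0.472, n = 653 and 752 peaks), which did not pass the test.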

How the data were processed

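The authors deposited peak lists on dm6, per the labels, for each of 2 replicates and for their pooled reads. The sources used here do not name an aligner or a peak caller. The signal value deposited for each peak is the authors' own, on an unstated scale, and was used within lists, or as a ratio between replicates at the same peak. The deposited summit offset column gave the summit position. Values for replicates came from the relaxed lists, matching summits within 100 bp. The pooled ranked lists held 4 per-sample signal columns tied to no replicate, which were not used.

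Start sites came from Ensembl release 115 and sequence from RefSeq release 6. The head-to-head check used every protein-coding start site of the nearest gene. Shares have exact Clopper-Pearson 95% intervals. Linear models with HC3 errors (statsmodels 0.14.6, Python 3.11.15, numpy 2.4.6, pandas 2.3.3, scipy 1.17.1, matplotlib 3.10.9) were adjusted by Benjamini-Hochberg, with 0.05 as the threshold, and were tested on simulated peaks. Samples form 1 group, so no groups of embryos were compared. Depth is unknown.

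The peaks, gene lists, motifs and tests were chosen with earlier results of these data known. The genes named were the 20 strongest lone peaks, up to 3 of the strongest in each list, the 5 highest and lowest replicate ratios, those nearest the limits of the rule, up to 10 genes with several peaks, and a sequence per motif. Other genes (robo2, Mer, moody as a counterexample, the carriers of 8 base words, the start site sequences and further list members) were named after their values were seen, and the values of 1 list member are not reported here. Alternatives were the conservative list, other windows, distances and orientations, each replicate alone, 1 peak per gene, clustered errors and other matching or sequence windows.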

Additional observations from a re-analysis of the deposited data

How the results depend on the processing

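The higher GC content of lone peaks kept its direction and its side of the threshold in all 13 alternatives run for it. The position difference, a description, kept its sign but shrank from -48.2 to -19.5 bp with the 250 bp window and to -20.5 bp with only partners 500 bp or more away. The signal difference passed the threshold in none of its 13 alternatives, and its sign turned with the conservative list (-0.0452 on the log2 scale), the 250 bp window (-0.0181), the 500 bp head-to-head distance (-0.0357) and only peaks matched in both relaxed lists (-0.0215). The difference in the conservative share turned with the 250 bp window (-1.38 points) and the 500 bp distance (-2.73), and ran from -1.46 to 1.15 with 1 replicate left out. The replicate ratio passed the threshold with the conservative list (-0.0846), the 250 bp window (-0.13) and the check at the nearest TSS only (-0.13). Width ran from -11.9 to -6.001 bp with 1 replicate left out, and passed without replicate 2 (n = 733 peaks, adjusted p = 0.0122). Lone peaks numbered 350 to 484 and the gene share was 3.70 to 5.15% with 1 replicate left out. The gene share was 5.71% with the conservative list and 4.97% with the 250 bp window. Causes were not tested. No paired analysis was possible because there is 1 group. A sequence window of 50 bp on each side lowered 9 of 10 motif shares at lone peaks, such as the DRE to 2.45%, and left the Zelda element at 0.306%, and the TATA hexamer share was 44.0% without replicate 2. Depth is not known here.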
